A study of Mus musculus with 67 samples.

Results

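Expression of 5 genes of neuronal calcium handling and neuronal shape (Camk2g, Camk2d, Atp2a2, Nefl and Srgap2) was followed in the cerebral cortex of mice over 5 ages and 2 diets. The members are every probe for which the platform annotation gives exactly 1 gene symbol, that symbol being one of the 5 genes. This gave 5 of the 4209 genes so annotated and 9 probes of the 8448 on the array: 1 for Camk2g, 1 for Camk2d, 3 for Atp2a2, 2 for Nefl and 2 for Srgap2. Each of the 67 arrays held radiolabelled cDNA from the cortex of 1 C57BL/6 mouse, hybridised to a filter of cDNA probes. Ad libitum (AL) mice were studied at 17-21 days (2 males, 3 females), at 33-44 days (3 males, 2 females) and at 6, 16 and 24 months (5 males and 5 females at each age). Mice on caloric restriction (CR) were studied at 6 months (4 males, 5 females), 16 months (5 males, 5 females) and 24 months (5 females, and 3 males that were each 673 days old). Per the labels, CR mice ate regular feed to 13 weeks of age, and then a fortified feed at 90%, 75% and lastly 60%. All mice were of 1 strain and no allele or drug is named in the labels, so by the labels age, diet and sex separate the groups. The groups also differ in the sets of arrays described below.

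Calcium that enters a neuron binds calmodulin, which switches on the calcium/calmodulin-dependent kinase CaMKII, a holoenzyme built from alpha, beta, gamma and delta subunits. Pumps of the endoplasmic reticulum, SERCA2 (the product of Atp2a2) among them, return the calcium to internal stores. Neurofilaments, of which the light chain is encoded by Nefl, set the calibre of axons, and srGAP2 (the product of Srgap2) is a membrane-bending protein that inactivates Rac and takes part in neuronal migration and in the maturation of dendritic spines.

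The values are z-scores, in which each array has a mean of 0 and an SD of 1, so a value gives the position of a probe on its own array and a difference is in units of that SD. They cannot be turned into fold changes, and values of different probes are not compared here, apart from where the mean of a probe ranks among all probes. Differences, 95% intervals and p-values are from a limma fit of all arrays, two-sided, adjusted by the Benjamini-Hochberg method over all 8448 probes, with both sexes weighted equally. Means ± SD are over arrays, and n is the number of arrays.

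Some features of the arrays bear on the values and stand before the results. Arrays numbered 46 and above (22 arrays) separated from the other 45 on the first principal component, which held 48.1% of the variance. Between these sets of arrays 3 of the 9 member probes passed the threshold, against 77.9% of all probes. The 17-21 days group had 0 arrays numbered 46 and above and the 33-44 days group had 2 of 5. Age and array set are thus partly confounded in the step between these ages. The replicate 2 arrays of 16 months AL, one labelled male and the other female, had a correlation of 0.9998 with identical values at 4312 probes, and they were counted as 1 sample in each mean, SD and n below (n = 9). The limma fit keeps them as 2 arrays. Fitted differences, intervals and p-values that use 16 months AL therefore count this pair as independent, and can differ from the differences of the means. Probes near each other on the filter also moved together, and subtracting the mean deviation of neighbouring probes removed 37.7% of the variance within the sets of arrays. This subtraction is called the neighbour correction below, and rests on a layout of 22 columns, 24 rows and 16 blocks inferred from the probe numbers. The labels call the tissue cortex, but few defining markers were measured: 1 of 16 for neurons (Uchl1), 4 of 13 for astrocytes, 2 of 13 for oligodendrocytes, 5 of 13 for microglia, 1 of 10 for endothelium, 6 of 12 for blood, 1 of 16 for muscle and 0 of 7 for choroid plexus. From 17-21 to 33-44 days the blood list had a median difference of -0.27 with 4 of 6 markers lower, of which the embryonic globin Hbb-y passed (-0.42, limma adjusted p = 0.0265), and the muscle marker Mylpf differed by -0.60 (95% interval -1.46 to 0.26). In the same step Uchl1 differed by 0.225 and the list medians were -0.07 for astrocytes, -0.11 for oligodendrocytes, -0.18 for microglia and -0.095 for endothelium, with 0 markers passing. From 16 to 24 months on AL and CR in turn, Uchl1 differed by -0.17 and -0.07 and Itm2a (endothelium) by 0.05 and 0.22. List medians were -0.02 and -0.01 for astrocytes, -0.06 and -0.03 for oligodendrocytes, 0.06 and -0.03 for microglia and 0.10 and -0.03 for blood. Mylpf differed by 0.04 and 0.17, and 0 markers passed in these adult steps. The part of these markers in the values of the members was not tested. Another doubt concerns 24 months AL male replicate 2, whose title and characteristics give 714 days while its description repeats that of 33-44 days AL male replicate 1. It was used by title and characteristics, and without it the 18 member differences of 24 months AL from 16 and 6 months AL kept their signs. In homogenised tissue, fewer cells of a type and less RNA per cell cannot be told apart.

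No member probe passed an adjusted p of 0.05 in any of the 13 comparisons of age, diet and sex. Over all probes, 0.0947% passed between 33-44 and 17-21 days and 0% in each of the other 12 comparisons, so the absence of calls was shared with nearly all probes. This fit has no blocks. With the array cycle (runs of array numbers through the groups) as a block, 54 probes passed from 16 to 24 months AL, 0 of them members. At an unadjusted p under 0.05 the 9 member probes gave 11 differences over the 13 comparisons, which are described by gene below beside the share of all probes. For each member probe the 8 conditions overlapped: in 90 pairings of ages or of diets, 0 had arrays of one condition all above those of the other. Overlap was not counted over all probes, so it is not shown to be a trait of the members. For every probe each step between neighbours in the order of the 8 means was smaller than the larger of their SDs.

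**Figure D1:**
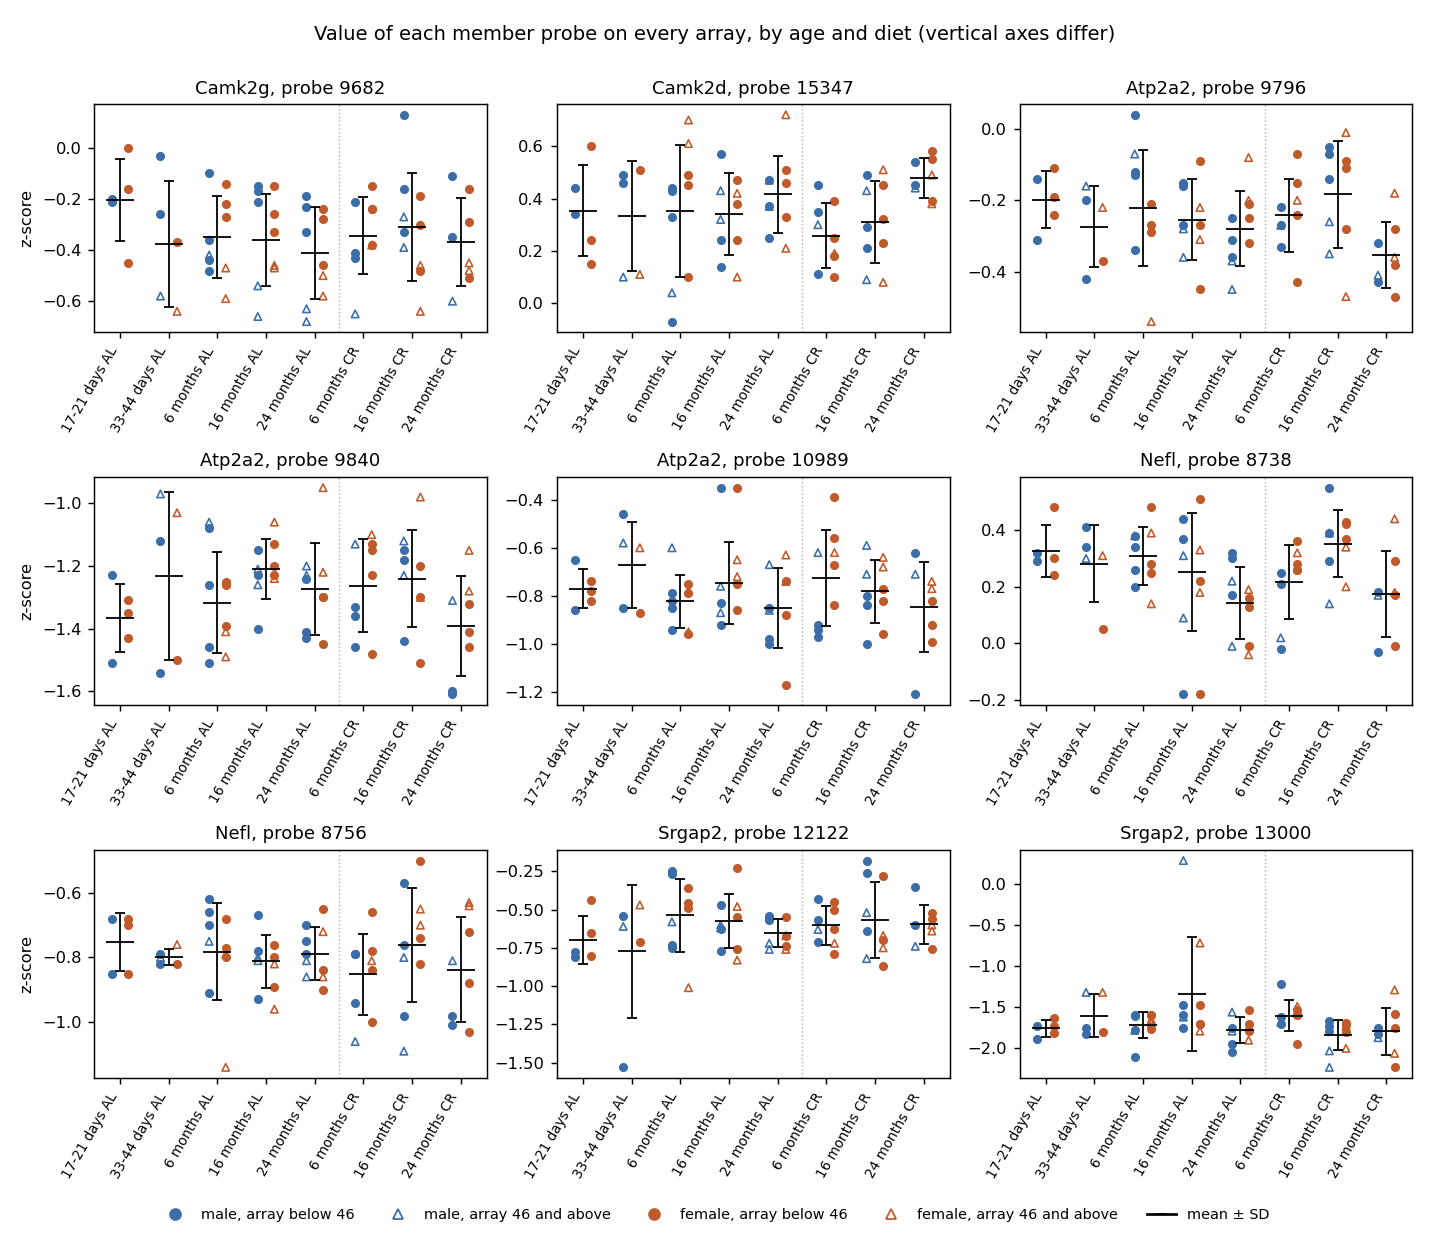
Z-score of each of the 9 member probes (1 panel each, vertical axes differ) on every array, by age and diet (horizontal axis; AL left and CR right of the dotted line). Blue marks males and orange females, filled circles are arrays numbered below 46 and open triangles the others, and bars give the mean ± SD over arrays, with each array of the near-identical pair at 16 months AL drawn and the pair counted as 1. The conditions overlap in every panel, and single arrays lie far out for both Srgap2 probes.

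The gamma and delta subunits of CaMKII did not pass the threshold for age or diet. Camk2g, the gamma subunit, was measured by probe 9682. Among AL mice its mean was -0.20 ± 0.16 at 17-21 days (n = 5), -0.38 ± 0.25 at 33-44 days (n = 5), -0.35 ± 0.16 at 6 months (n = 10), -0.36 ± 0.18 at 16 months (n = 9) and -0.41 ± 0.18 at 24 months (n = 10). In CR mice it was -0.34 ± 0.15 at 6 months (n = 9), -0.31 ± 0.21 at 16 months (n = 10) and -0.37 ± 0.17 at 24 months (n = 8). The youngest mice had the highest mean and the oldest AL mice the lowest, but neighbours in this order differed by less than their spread. The 5 arrays of 17-21 days read 0.00, -0.16, -0.20, -0.21 and -0.45, and those of 33-44 days read -0.03, -0.26, -0.37, -0.58 and -0.64. The lowest arrays at 33-44 days are the 2 numbered 46 and above, and the set at 17-21 days has 0 such arrays.

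The step from 17-21 to 33-44 days was -0.19 (95% interval -0.43 to 0.05, limma adjusted p = 0.410), and it was -0.05 among arrays numbered below 46 and 0.06 with the neighbour correction and both array blocks. Camk2g stood lower in the later arrays irrespective of group, at -0.53 ± 0.11 (n = 22) against -0.26 ± 0.14 (n = 45), a fitted difference of -0.27 (limma adjusted p = 8.6e-10). Its other age and diet differences lay between -0.07 and 0.05, with CR minus AL over the 3 adult ages at 0.02 (95% interval -0.08 to 0.12).

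**Figure D2:**
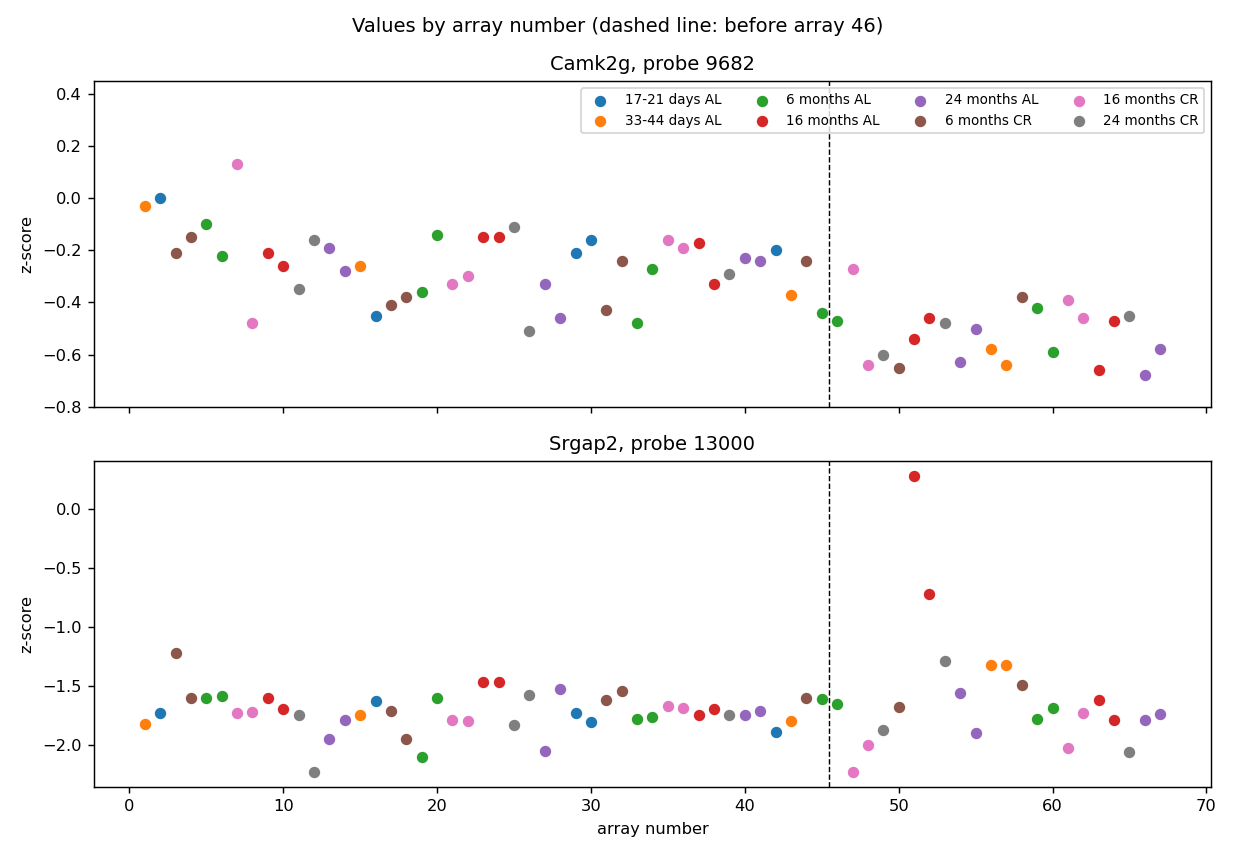
Z-scores of Camk2g probe 9682 (upper panel) and Srgap2 probe 13000 (lower panel) against array number, with 1 point per array and colours for the 8 age and diet conditions. Camk2g is lower to the right of the dashed line, which marks the split before array 46 (-0.53 against -0.26), and for Srgap2 the arrays numbered 51 and 52, both of 16 months AL, stand apart at 0.28 and -0.72.

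Camk2d, the delta subunit, was measured by probe 15347, one of the 2 member probes with a mean above 0. Among AL mice the mean was 0.35 ± 0.18 at 17-21 days (n = 5), 0.33 ± 0.21 at 33-44 days (n = 5), 0.35 ± 0.25 at 6 months (n = 10), 0.34 ± 0.16 at 16 months (n = 9) and 0.42 ± 0.15 at 24 months (n = 10). The first 4 of these AL means lie within 0.02 of each other. For CR mice the lowest, median and highest arrays were 0.10, 0.25 and 0.45 at 6 months (n = 9), 0.08, 0.31 and 0.51 at 16 months (n = 10) and 0.38, 0.47 and 0.58 at 24 months (n = 8). All 8 arrays of 24 months CR lay above the mean of 16 months CR, although the ranges overlap.

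From 16 to 24 months on CR the fitted difference of Camk2d was 0.17 (95% interval 0.0005 to 0.33, limma adjusted p = 0.999). The same interval on AL gave 0.09 (95% interval -0.07 to 0.24), and the test of diet by age gave 0.08 (95% interval -0.15 to 0.31), so the diets were not shown to differ in this step. After the neighbour correction the CR difference was 0.04. The 3 probes of other genes most like Camk2d over the 67 arrays, with each set of arrays centred, were those of Fastk (r = 0.91), 1110038B12Rik (r = 0.91) and Stx16 (r = 0.91). The Fastk probe lies 1 row from it on the inferred layout and the other two lie in the next block within 1 column of the same place, and after the neighbour correction the correlations were 0.40, 0.38 and 0.38.

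Atp2a2, which encodes the calcium pump SERCA2, had 3 probes, and they did not move as one. Probe 9796 stood between -0.18 and -0.35 in condition means, probe 9840 between -1.21 and -1.39 and probe 10989 between -0.67 and -0.85. The mean of probe 9840 over all arrays lay at percentile 8.5 of all probes, a low signal. Over the 67 arrays, with each set of arrays centred, probes 9796 and 9840 correlated at 0.64, probes 9840 and 10989 at 0.33 and probes 9796 and 10989 at 0.15. Probes 9796 and 9840 lie in the same block and column of the inferred layout, 2 rows apart, and after the neighbour correction they correlated at 0.22. These correlations are over arrays that share array sets and filters and are given as a description.

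In CR mice the lowest, median and highest arrays of probe 9796 were -0.43, -0.24 and -0.07 at 6 months (n = 9), -0.47, -0.13 and -0.01 at 16 months (n = 10) and -0.47, -0.37 and -0.18 at 24 months (n = 8). The oldest CR mice thus had the lowest median, and 7 of their 8 arrays lay below the mean of 16 months CR, within overlapping ranges. Among AL mice the means of this probe stayed between -0.20 and -0.28 at all 5 ages, with SDs from 0.08 to 0.16. For probe 9840 the CR arrays ran from -1.48 to -1.10 at 6 months (median -1.23), from -1.51 to -0.98 at 16 months (median -1.22) and from -1.61 to -1.15 at 24 months (median -1.37). Here too 7 of 8 arrays of 24 months CR lay below the mean of 16 months CR.

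From 16 to 24 months on CR, the fitted difference was -0.18 for probe 9796 (95% interval -0.30 to -0.06), -0.17 for probe 9840 (95% interval -0.33 to -0.02) and -0.07 for probe 10989 (95% interval -0.23 to 0.10). The limma adjusted p was 0.999 for each of the 3. On AL the same step was -0.02, -0.06 and -0.15 in the same order of probes, and diet by age gave -0.15 for probe 9796 (95% interval -0.32 to 0.01). The neighbour correction left -0.10 for probe 9796 and -0.06 for probe 9840, and among arrays numbered 46 and above the differences were -0.07 and -0.105. The 24 months CR males were younger (673 days) than all other mice of 24 months (703 to 743 days).

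Probe 10989 of Atp2a2 read -0.85 ± 0.17 at 24 months AL (n = 10) and -0.75 ± 0.17 at 16 months AL (n = 9). The near-identical arrays of 16 months AL, both at -0.35, were the highest of all 67 for this probe. With these arrays the 24 minus 16 months AL difference was -0.15 (95% interval -0.30 to 0.01, limma adjusted p = 0.785), and without them it was -0.06. At 33-44 days the 5 arrays read -0.46, -0.58, -0.60, -0.85 and -0.87, around the highest condition mean (-0.67 ± 0.18).

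Nefl, the neurofilament light chain, had 2 probes, and probe 8738 gave 4 of the 11 differences with an unadjusted p under 0.05. Its 5 arrays at 17-21 days read 0.24, 0.29, 0.30, 0.32 and 0.48, and those at 33-44 days read 0.05, 0.30, 0.31, 0.34 and 0.41. Among AL mice the lowest, median and highest arrays were 0.14, 0.31 and 0.48 at 6 months (n = 10), -0.18, 0.31 and 0.51 at 16 months (n = 9) and -0.04, 0.17 and 0.32 at 24 months (n = 10). The AL medians were thus alike from 33-44 days to 16 months and lower at 24 months, where 9 of 10 arrays lay below the mean of 6 months AL.

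In CR mice the lowest, median and highest arrays of Nefl probe 8738 were -0.02, 0.26 and 0.36 at 6 months (n = 9), 0.14, 0.38 and 0.55 at 16 months (n = 10) and -0.03, 0.18 and 0.44 at 24 months (n = 8). The mean was highest at 16 months CR (0.35 ± 0.12), and 7 of the 8 arrays at 24 months CR lay below it. Between 6 and 24 months AL the fitted difference was -0.17 (95% interval -0.30 to -0.03, limma adjusted p = 1). On CR it was 0.15 from 6 to 16 months (95% interval 0.01 to 0.29) and -0.19 from 16 to 24 months (95% interval -0.34 to -0.04), with limma adjusted p of 1 and 0.999. At 16 months CR minus AL was 0.14 (95% interval 0.01 to 0.28, limma adjusted p = 1).

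These differences of Nefl probe 8738 depended unequally on the processing. The difference between 6 and 24 months AL lay between -0.23 and -0.09 under 13 alternative settings, and was -0.10 after the neighbour correction. Some of these settings drop only other probes or arrays of other groups, so they cannot change this difference. After that correction the CR differences were 0.02 from 6 to 16 months and -0.02 from 16 to 24 months, and CR minus AL at 16 months was 0.04. The near-identical arrays of 16 months AL, both at -0.18, are the lowest of the 67, and without them CR minus AL at 16 months was 0.05. Probes most like it over the 67 arrays were those of Mrpl52 (r = 0.80), Prpf18 (r = 0.75) and H2aj (r = 0.75), at 0.19, 0.36 and 0.26 after the neighbour correction.

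The second Nefl probe, 8756, showed none of these differences at an unadjusted p under 0.05. Its condition means lay between -0.85 and -0.75, with SDs from 0.03 to 0.18. The difference between 6 and 24 months AL was -0.01 (95% interval -0.12 to 0.11), where probe 8738 gave -0.17 (95% interval -0.30 to -0.03). On CR its difference was 0.10 from 6 to 16 months (95% interval -0.03 to 0.22) and -0.10 from 16 to 24 months (95% interval -0.22 to 0.03), with the signs of probe 8738. The 2 Nefl probes correlated at 0.44 over the 67 arrays with each set of arrays centred, and at 0.28 after the neighbour correction. They lie in the same row and block of the inferred layout, in columns 4 and 22.

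**Figure D3:**
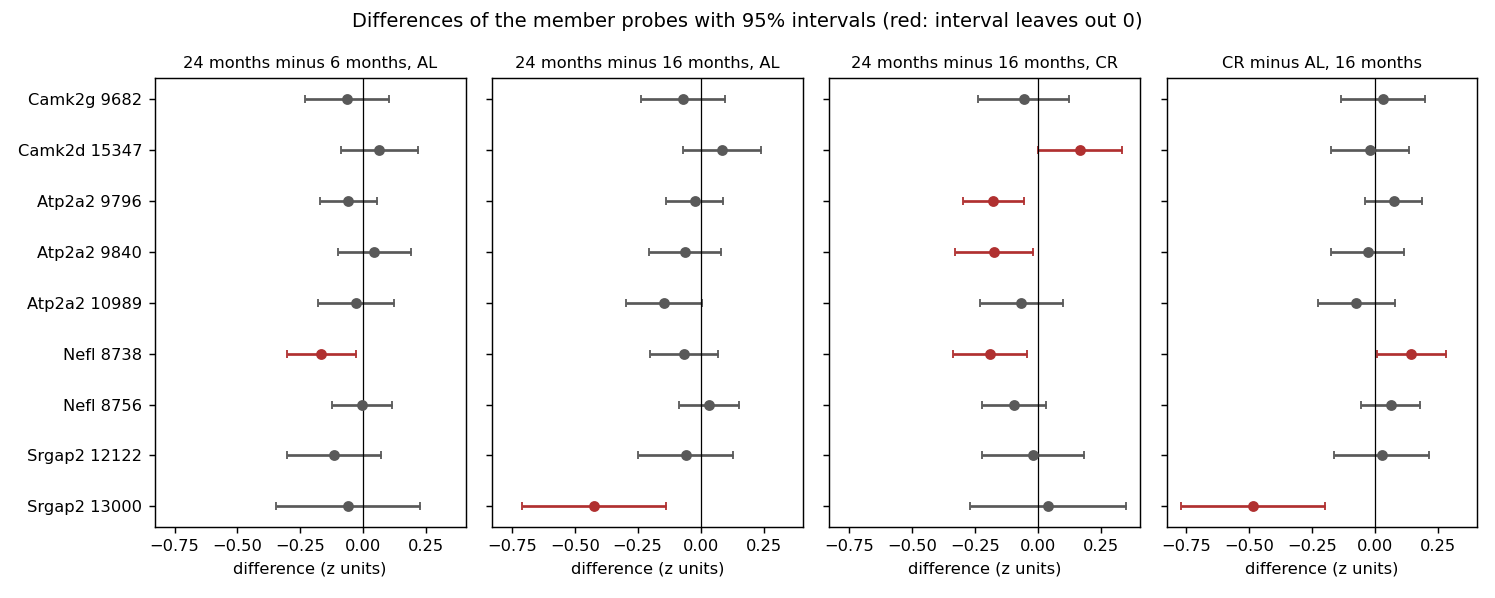
Fitted differences of the 9 member probes (vertical axis) in z units (horizontal axis) for 24 minus 6 months AL, 24 minus 16 months AL, 24 minus 16 months CR and CR minus AL at 16 months, with bars for the 95% intervals of the limma fit. Red marks intervals that leave out 0: Nefl probe 8738 in 3 panels, Srgap2 probe 13000 in 2, and Camk2d and Atp2a2 probes 9796 and 9840 for 24 minus 16 months CR.

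Srgap2 had 2 probes whose values did not move together (r = -0.03 over the 67 arrays with each set of arrays centred, and 0.04 after the neighbour correction). Probe 13000 had a mean of -1.68 over all arrays, at percentile 4.3 of all probes, so its signal was among the lowest on the filter. It gave another 4 of the 11 differences with an unadjusted p under 0.05, all of which use the 16 months AL group. In this group 8 of the 10 arrays read between -1.79 and -1.47, while 16 months AL male replicate 4 read 0.28 and 16 months AL female replicate 4 read -0.72. These are the arrays numbered 51 and 52, and no other array of the 67 read above -1.22. The mean of 16 months AL was -1.34 ± 0.69 (n = 9), and this SD is above that of every other condition (0.10 to 0.29).

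Elsewhere the levels of probe 13000 were closer together. The 5 arrays at 17-21 days read -1.63, -1.73, -1.73, -1.81 and -1.89, and those at 33-44 days read -1.32, -1.32, -1.75, -1.80 and -1.82. AL means were -1.72 ± 0.16 at 6 months and -1.78 ± 0.16 at 24 months (n = 10 each). In CR mice the lowest, median and highest arrays were -1.95, -1.60 and -1.22 at 6 months (n = 9), -2.23, -1.76 and -1.67 at 16 months (n = 10) and -2.23, -1.79 and -1.29 at 24 months (n = 8). The 2 arrays at -1.32 in the group of 33-44 days are both numbered 46 and above.

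At 16 months CR minus AL was -0.49 for probe 13000 (95% interval -0.77 to -0.20), which had the smallest p of all 8448 probes in that comparison (limma adjusted p = 1). The AL differences were 0.36 from 6 to 16 months (95% interval 0.07 to 0.65, limma adjusted p = 0.999) and -0.42 from 16 to 24 months (95% interval -0.71 to -0.14, limma adjusted p = 0.612), and diet by age gave 0.46 (95% interval 0.04 to 0.89). Without the arrays numbered 51 and 52, a choice made after seeing the values, these differences were -0.20 for CR minus AL, 0.08 from 6 to 16 months, -0.14 from 16 to 24 months and 0.18 for diet by age. Leaving out the male array alone gave -0.30, 0.17, -0.23 and 0.27 in the same order. Between 6 and 24 months AL, which leaves the 16 months group out, the difference was -0.06 (95% interval -0.35 to 0.23).

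Srgap2 probe 12122 stayed between condition means of -0.77 and -0.54. The 5 arrays at 17-21 days read -0.44, -0.65, -0.78, -0.80 and -0.81, and at 33-44 days they read -0.47, -0.54, -0.61, -0.71 and -1.53. The array at -1.53, 33-44 days AL male replicate 1, is the lowest of the 67 for this probe. The difference between 33-44 days and 6 months AL was 0.20 (95% interval -0.03 to 0.44, limma adjusted p = 0.987) and was 0.05 without that array. From 6 to 24 months AL the difference was -0.12 (95% interval -0.30 to 0.07) and CR minus AL over the 3 adult ages was 0.01 (95% interval -0.10 to 0.12).

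**Figure D4:**
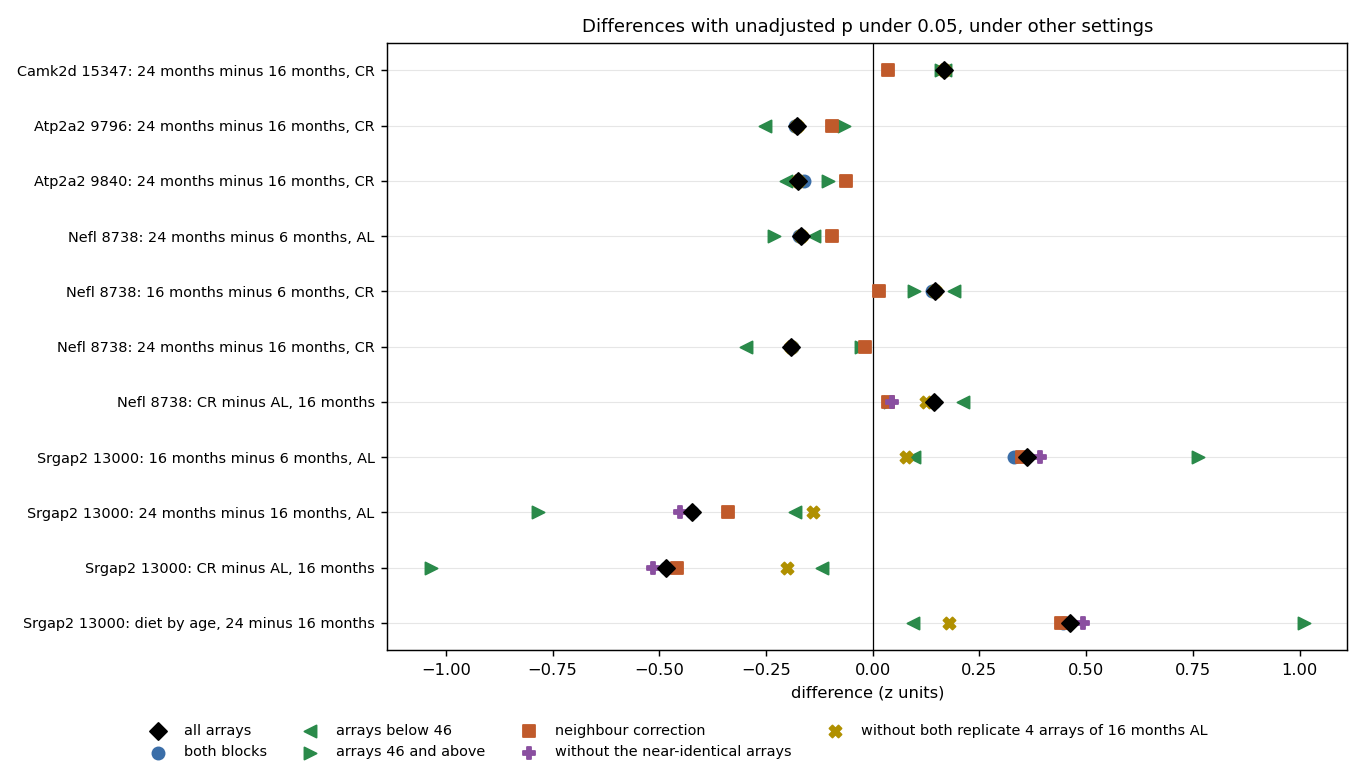
The 11 member differences with an unadjusted p under 0.05 (vertical axis) in z units (horizontal axis) over all arrays (black diamonds) and under other settings: array cycle and array number as blocks, each set of arrays alone, the neighbour correction, and leaving out the near-identical arrays or both arrays of replicate 4 at 16 months AL. The signs hold in each setting drawn. The differences were picked by their p over all arrays, which by itself favours a kept sign. Leaving out arrays of 16 months AL cannot change the differences that do not use that group. The Nefl difference from 16 to 24 months CR goes from -0.19 to -0.02 with the neighbour correction. The Srgap2 difference of CR minus AL at 16 months goes from -0.49 to -0.20 without the arrays of replicate 4.

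By comparison, the members' counts at an unadjusted p under 0.05 stood as follows beside all probes. Among the juvenile steps, 0 of 9 member probes differed from 17-21 to 33-44 days (14% of all probes) and 0 of 9 from 33-44 days to 6 months (5.31%). The 14% is for a step whose ages also differ in array set. On AL, 1 of 9 differed from 6 to 16 months (3.04%), 1 of 9 from 16 to 24 months (6.57%) and 1 of 9 from 6 to 24 months (2.89%). From 6 to 16 and from 16 to 24 months it was Srgap2 probe 13000, whose differences were smaller without the arrays numbered 51 and 52. On CR, 1 of 9 differed from 6 to 16 months (2.33%) and 4 of 9 from 16 to 24 months (4.15%). The 4 probes of the last step were those of Camk2d, Atp2a2 (9796 and 9840) and Nefl (8738), of which the Atp2a2 probes are of the same gene and lie 2 rows apart. Of these only the Camk2d difference was positive, and all 4 were smaller in size after the neighbour correction, as given by gene above.

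For diet, 0 of 9 differed at 6 months (0.462% of all probes), 2 of 9 at 16 months (1.03%), 0 of 9 at 24 months (1.04%) and 0 of 9 over the 3 adult ages (0.71%). The 2 at 16 months were Nefl probe 8738 and Srgap2 probe 13000. The Nefl difference was smaller without the near-identical arrays, and the Srgap2 difference without the arrays numbered 51 and 52. Over the 3 ages the CR minus AL differences lay between -0.13 and 0.03, and all their 95% intervals lay between -0.30 and 0.12. For diet by age the count was 1 of 9 (0.888%), again Srgap2 probe 13000 with a smaller difference without those arrays. Between the sexes, over the 8 conditions, it was 0 of 9 (0.592%). Female minus male differences lay between -0.03 and 0.03, and 8 of 9 were positive, against 51.7% of all probes. Comparisons that share a group are not independent, and the 16 months CR mice serve in both CR steps and in the diet comparison of that age.

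The selection rule of the study's methods, as far as it was applied here, takes probes with a mean z above 0, an unadjusted p under 0.05 and a z-ratio (the difference divided by its SD among the probes of the array) no smaller than 1.5 in either direction. Only Camk2d and Nefl probe 8738 have a mean above 0, so the other 7 member probes could not meet it. Nefl probe 8738 met it between 6 and 24 months AL (z-ratio -1.83; 1.5% of all probes met the rule), from 6 to 16 months CR (1.60; 1.09%) and from 16 to 24 months CR (-1.84; 1.29%). Camk2d met it from 16 to 24 months CR (1.61). From 16 to 24 months AL 0 of the 9 met it (2.04% of all probes).

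**Figure D5:**
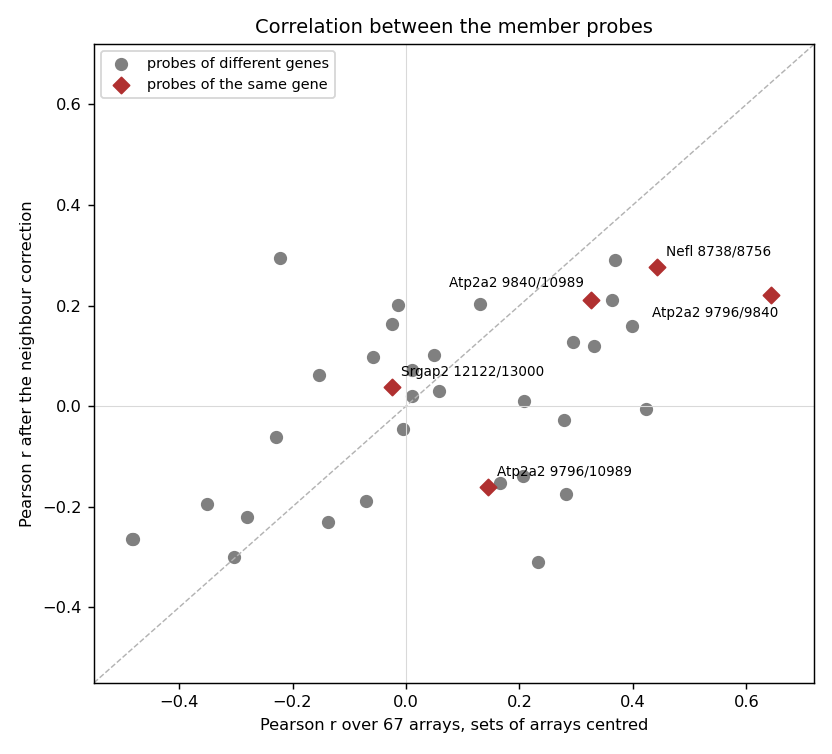
Pearson correlation over the 67 arrays for the 36 pairs of member probes, with each set of arrays centred (horizontal axis) and after the neighbour correction as well (vertical axis); red diamonds are the 5 pairs of probes of the same gene and the dashed line marks equal values. The Atp2a2 pair 9796 and 9840 goes from 0.64 to 0.22, and the Srgap2 pair is at -0.03 and 0.04.

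Pairs of probes of the same gene were not set clearly apart from other pairs. The 5 same-gene pairs had correlations from -0.03 to 0.64 (median 0.33), and the 31 pairs of different genes from -0.48 to 0.42 (median 0.01). After the neighbour correction the medians were 0.21 and 0.01. The strongest negative pairs joined Camk2d with Atp2a2 probes 9796 and 9840 (-0.48 each), at -0.27 and -0.26 after the correction. For Camk2g the probes most alike were those of Rnf130 (r = 0.75), Slc34a2 (r = 0.71) and Prxl2a (r = 0.64), all within 2 columns and 1 row of it. For Atp2a2 the first of the most alike were St13 for probe 9796 (r = 0.71), Sftpd for probe 9840 (r = 0.72) and 2700097O09Rik for probe 10989 (r = 0.70). For the remaining probes they were Med23 for Nefl probe 8756 (r = 0.58), Runx1t1 for Srgap2 probe 12122 (r = 0.80) and Spg21 for Srgap2 probe 13000 (r = 0.51). All these correlations are over arrays that share filters and array sets.

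Other genes of the same pathways were read from lists, with the member genes left out and with 1 probe per gene (the one with the highest mean). Measured were 14 of 40 genes of the CaMK, calmodulin and calcineurin list, 11 of 48 calcium pumps, exchangers and stores, 7 of 42 calcium-binding proteins, 3 of 19 neurofilament and intermediate filament genes, 21 of 56 axonal microtubule proteins and motors, and 0 of 38 plasma membrane calcium channels. In none of these lists did a gene pass a limma adjusted p of 0.05 in any of the 13 comparisons. The genes named below are the 2 with the smallest p in each list and comparison, and each value is followed by its value with the neighbour correction and both array blocks.

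From 16 to 24 months AL, the calmodulin gene Calm3 differed by -0.17 (-0.15 with the correction and blocks) and Eef2k, a kinase that calmodulin activates, by -0.17 (-0.0149). In this CaMK list 9 of 14 differences were negative (median -0.05), and 4 of 14 had an unadjusted p under 0.05, against 6.57% of all probes. That count was 3 of 14 with the correction and blocks, and 2 of 14 without the near-identical arrays. In the list of pumps and stores, Casq1, a calcium-binding protein of the reticulum, differed by 0.15 (-0.0313, of opposite sign) and Asph by -0.18 (-0.11), with 6 of 11 negative (median -0.009). Among calcium-binding proteins, the neuronal calcium sensor Ncald differed by -0.14 (-0.0062) and Calu by -0.21 (-0.30), with 4 of 7 negative (median -0.07). Without the near-identical arrays the Calu difference turned to 0.0543, and that of Asph was -0.0825. The median over all probes was -0.004, with 48.2% of differences positive.

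Among filament genes in the same interval Krt18 differed by 0.10 (0.12 with the correction and blocks) and the linker Plec by 0.19 (0.27), with 3 of 3 positive (median 0.10). Among microtubule proteins and motors 18 of 21 differences were negative (median -0.06), and with the correction and blocks 18 of 21 were negative too (median -0.04). Dync1li1, a light intermediate chain of dynein, differed by -0.14 (-0.0246) and Dynll1, a dynein light chain, by -0.11 (-0.0247). On CR 14 of 21 of this list were negative from 16 to 24 months (median -0.04), and from 6 to 16 months AL 14 of 21 were positive (median 0.05). Limma adjusted p from 16 to 24 months AL were 0.616 or more for every gene named in these lists.

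From 17-21 to 33-44 days the smallest adjusted p of the lists was that of Dctn1, the large dynactin subunit, at -0.43 (95% interval -0.64 to -0.21, limma adjusted p = 0.0627). With the correction and blocks it was -0.0889 (limma adjusted p = 0.983). Ank2, an ankyrin of the same list, differed by 0.25 (0.0789), and 12 of 21 of the list were negative (median -0.015). Stim2, a sensor of store calcium, differed by -0.28 (-0.0464) and Sri, or sorcin, by -0.19 (-0.0162), with 7 of 11 of their list negative (median -0.08). Anxa2 differed by -0.25 (-0.0291) and Rcn3 by 0.69 (0.0660), with 2 of 7 calcium-binding proteins negative (median 0.14). Pde1a, a calmodulin-dependent phosphodiesterase, differed by -0.20 (0.0795, of opposite sign) and the kinase Camk1d by 0.32 (0.0651), with 7 of 14 of the CaMK list negative (median 0.04). Plec differed by 0.45 (0.20) and vimentin (Vim) by -0.27 (0.0202, of opposite sign), with 2 of 3 filament genes positive (median 0.006). Each gene named for this step was thus closer to 0 with the correction and blocks. These genes were picked by the smallest p without them, a choice that by itself favours values farther from 0 there.

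For CR minus AL over the 3 adult ages, the calcineurin subunit Ppp3cb differed by -0.05, Camk1 by -0.04, Stim2 by 0.04, the plasma membrane calcium pump Atp2b1 by 0.04, Anxa6 by -0.06 and Calu by -0.06, the last turning to 0.0267 without the near-identical arrays. In the other lists Vim differed by -0.04, Krt18 by -0.02, Dync1li1 by 0.04 and the kinesin Kif3b by -0.06. With the correction and blocks these 10 differences lay between -0.0706 and 0.0241 and kept their signs. The list medians lay between -0.04 and 0.01, against a median of -0.0006 over all probes.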

How the data were processed

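The deposited values are a score, the z-score of each probe on its own array: per the study's methods the authors exposed the filters to imaging screens, extracted the signal with ArrayPro, applied a Z transformation and analysed the values in the DIANE program. Whether background was subtracted from the signal was not found in those methods. For gene selection they keep only genes with a positive average, to avoid picking genes whose signal is low against background. Spot intensities were not used, so the number of arrays and their spread set the precision. Groups came from the labels' characteristics. Members and gene lists were chosen with earlier results of these data known. Every member probe is named, and from each list the 2 genes with the smallest p in 3 comparisons are named. The results of 1 further list are not reported here.

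Tests used limma 3.58.1 in R 4.3.3: 16 group means (age, diet and sex), 13 contrasts, eBayes, two-sided, adjusted over 8448 probes, threshold 0.05. The fit was checked on simulated data. The near-identical arrays stay as 2 arrays in the fit. Labels give no replicate numbers, and arrays were matched across groups only by the array cycle, in an alternative. Alternatives were quantile normalization, median centring, a filter on mean z, compared groups only, array number (46 and above) and array cycle (5 runs of numbers through the groups) as blocks, each set of arrays alone, omission of arrays, and the neighbour correction. Figures used Python 3.11.15 and matplotlib 3.10.9. 1 value was missing, for 0 of the member probes.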

Additional observations from a re-analysis of the deposited data

Results flagged for a closer look

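Within the 8 conditions, 72 groups of 5 to 10 arrays were checked for a lowest or highest array set far apart from the rest, and 4 were found, where chance gives about 1 in 20. At Srgap2 probe 12122, 33-44 days AL male replicate 1 read -1.53 against -0.71 for the next lowest. For Srgap2 probe 13000, 6 months AL male replicate 2 read -2.10 against -1.78. For Atp2a2 probe 10989, the near-identical arrays of 16 months AL, counted as 1, read -0.35 against -0.65 for the next highest. For Atp2a2 probe 9840, 24 months AL female replicate 5 read -0.95 against -1.20. The pair of 16 months AL arrays at 0.28 and -0.72 for Srgap2 probe 13000 was not found this way, because each lies beside the other.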

How the results depend on the processing

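No member probe passed an adjusted p of 0.05 under any alternative fit, with the smallest limma adjusted p at 0.103 (Srgap2 probe 13000, 16 to 24 months AL, both blocks) and, with 1 array left out, at 0.137 (Atp2a2 probe 9840 between the juvenile ages). The signs of uncalled differences were not stable: 69 of 117 turned under at least 1 alternative and 39 of 117 when 1 array was left out. By the selection rule of the study's methods, in place of the adjusted p, the member probes called were 1 between 6 and 24 months AL, 1 from 6 to 16 months CR and 2 from 16 to 24 months CR. The following differences moved by more than the SD within groups; the cause was not tested. With arrays numbered below 46 alone, Atp2a2 probe 9840 gave -0.0483 between the juvenile ages and 0.10 from 33-44 days to 6 months, Camk2d gave -0.18 in the latter interval, Srgap2 probe 13000 gave -0.12 for CR minus AL at 16 months and 0.0933 for diet by age, and Nefl probe 8738 gave -0.28 for diet by age. With arrays numbered 46 and above alone, of which the 17-21 days group has 0, the values from 33-44 days to 6 months were 0.24 for Camk2d, -0.26 for Atp2a2 probe 9840 and -0.12 for Srgap2 probe 12122. In the same arrays Srgap2 probe 13000 gave 0.76 from 6 to 16 months AL, -0.79 from 16 to 24 months AL, -1.04 for CR minus AL at 16 months and 1.01 for diet by age. Atp2a2 probe 10989 gave 0.025, 0.095 and -0.1025 in the last 3 of these comparisons. From 16 to 24 months CR they gave -0.0275 for Nefl probe 8738 and 0.0875 for probe 8756, with 0.11 and 0.0525 for diet by age and 0.09 for probe 8756 for CR minus AL at 24 months. The neighbour correction gave -0.0186 for Nefl probe 8738 from 16 to 24 months CR, and with both blocks -0.0195, and 0.0622 for Camk2g between the juvenile ages. With the array cycle as a block, the one way to match arrays across groups, 5 of 117 member differences turned sign and 0 passed. Over all probes that block gave 54 calls from 16 to 24 months AL (92 with both blocks) against 0, and 1 between the juvenile ages against 8 (21 with both blocks, 70 with the array number block). Leaving out 33-44 days AL female replicate 1, 33-44 days AL male replicate 2 or 17-21 days AL female replicate 2 gave 441, 214 or 72 calls between the juvenile ages.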
